A study of Mus musculus with 10 samples.

Results

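Heat shock proteins and DnaJ proteins (J proteins) were followed in cardiomyocytes, the contractile muscle cells of the heart, isolated from the atria or the ventricles of wild-type mice. The genes were chosen by symbol. They were all genes of the Hspa, Hspb and Hsp90 families, Hspd1, Hspe1, Hsph1 and all numbered Dnaja, Dnajb and Dnajc genes, and Hspbap1 and Hspbp1 were left out. This gave 72 of the 25239 gene symbols in the tables. Of the 72 genes, 64 averaged at least 10 normalized reads over the libraries and were tested, and 8 did not. Each chamber had 5 libraries (replicates 1 to 5) made from total RNA. All libraries were described with the wild-type genotype and the same preparation, by Trizol extraction, RNA Clean and Concentrator columns and the ScriptSeq v2 kit. Whether every step was the same for all replicates cannot be seen from that description. The labels give no age, sex or strain and do not state how cells were isolated or whether each library is another animal. The p-values therefore reflect library-to-library spread, part of which may be technical.

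Molecular chaperones bind unfolded protein and keep it from aggregating while it folds. Hsp70 proteins grip and release short stretches of client protein in cycles of ATP hydrolysis, J proteins bring clients to Hsp70 and start that hydrolysis, and Hsp110 proteins, relatives of Hsp70, exchange the nucleotide. Hsp90 completes the folding of kinases and receptors, small heat shock proteins hold unfolded clients without ATP, and the Hsp60 and Hsp10 chaperonin encloses them inside mitochondria. Mitochondria and the endoplasmic reticulum (ER) each have an Hsp70 and J proteins of their own. In heart muscle, which renews its sarcomeres under constant load, small heat shock proteins bind the contractile and cytoskeletal filaments.

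The deposited values are reads per gene that the authors divided by a size factor for each library, here called normalized reads. Replicates 1 and 2 were shallow, at 1790402 to 4445287 reads, and replicates 3 to 5 had 11163805 to 12842635 reads. Reads of the ribosomal precursor transcript Rn45s made up 0.215% to 0.480% of replicates 1 and 2, against 23.1% to 29.8% of replicates 3 to 5. This division follows replicate numbers and not chamber, each set holds both chambers, and no label explains it. Where a gene had no read, as many as 3 remain possible from counting error alone, equal to 10.4 normalized reads in ventricular replicate 1 and to 1.70 in atrial replicate 3, the extremes of the 10 libraries. The 72 genes together took 0.917% to 1.16% of the reads of a library. With Rn45s reads left out of the total, they took 0.963% to 1.17% in replicates 1 and 2. In replicates 3 to 5 that share was 1.29% to 1.44%. All 13 cardiomyocyte markers passed the filter, and the chamber-specific ones went with the labels, Myl4, Myl7 and Nppa being called higher in atrial and Myl2, Myl3 and Pln lower in atrial libraries (limma, adjusted p at or under 0.05). In bulk RNA such as this, fewer cells of a type and less RNA per cell cannot be told apart.

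Levels were compared between genes as normalized reads per kilobase of exon, where exon length joins all annotated exons of a gene. It was 4032 bases for Hsp90b1 and 4301 for Hspa8, whose longest protein-coding transcripts have 2825 and 2394 bases. For Hspb7 both lengths were 2769 bases. The order between genes, and the place of Hspb7 in it, therefore depends on this choice of length. Hsp90ab1, the constitutive cytosolic Hsp90, had the highest mean, 3672 ± 825 (SD, n = 10 libraries). It was followed by Hspb7, a small heat shock protein found mainly in heart and skeletal muscle, at 1877 ± 1015. Hsp90b1, the ER-resident Hsp90, averaged 1818 ± 198, and Hspa9, the mitochondrial Hsp70, averaged 1690.1 ± 523. Next came Hspa5, the ER Hsp70 known as BiP, at 1416 ± 205 and Hspa8, the constitutive cytosolic Hsp70, at 1332 ± 393. Hspd1, the mitochondrial Hsp60, stood at 849.6 ± 282. Over all libraries the order from Hspb7 to Hspa8 is not separated by the spread between libraries, since neighbouring means lay closer than 1 SD. The place of Hspb7 differed by library set. Per kilobase of joined exon length it lay above Hsp90b1 in every library of replicates 3 to 5. It lay below Hsp90b1, Hspa9 and Hspa8 in every library of replicates 1 and 2. Before division by exon length it had 1513 to 2927 normalized reads in replicates 1 and 2 and 6159 to 8434 in replicates 3 to 5. By joined exon length the highest J protein was Dnaja2, a cytosolic partner of Hsp70, at 593 ± 117. It was level within its spread with the stress-inducible Hsp90aa1 at 577 ± 87.7. The J protein Dnajc8 averaged 422 over 2555 bases of exon, and its longest coding transcript has 1401 bases. For Dnaja2 these lengths were 2975 and 2919 bases, so the order of the pair depends on the length used. At the other end of the tested genes Dnajc6, the clathrin-uncoating factor auxilin, averaged 3.06. The 8 genes under the filter were Dnajb3, Dnajb7, Dnajb8, Dnajb13, Dnajc5b, Dnajc5g, Dnajc22 and Hspb9. None exceeded 13.8 normalized reads in a library (the highest was Dnajb13 in atrial replicate 1), and none was at 0 in all libraries.

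**Figure D1:**
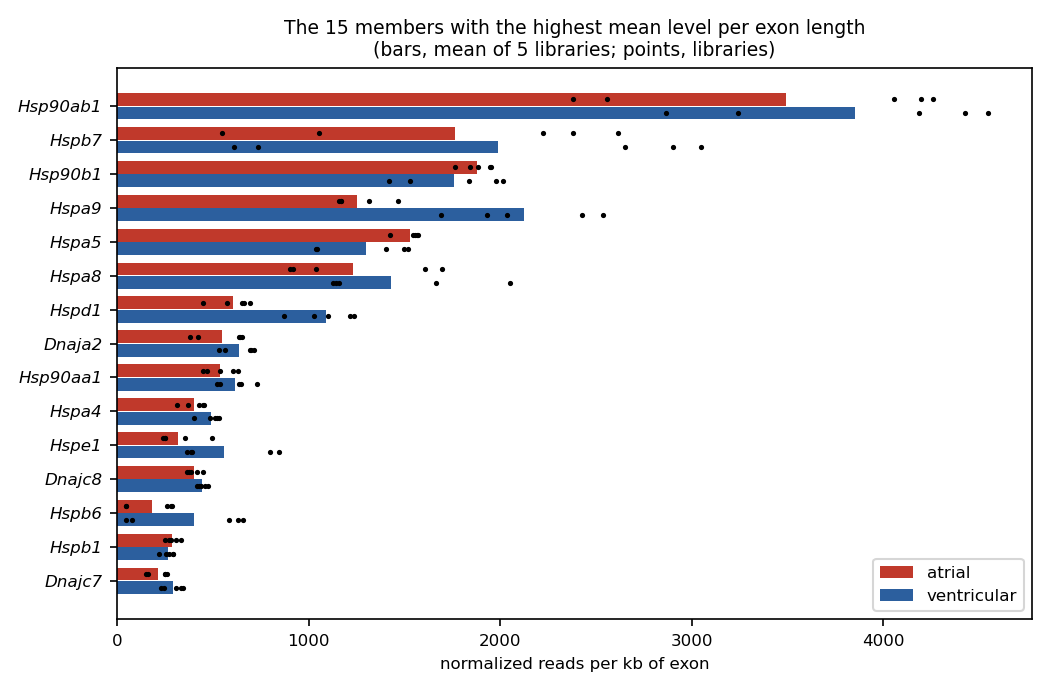
The 15 chaperone genes with the highest mean level, in normalized reads per kilobase of exon (horizontal axis). Bars are means of 5 atrial (red, upper) and 5 ventricular (blue, lower) libraries and points are libraries. Hsp90ab1 has the highest mean in both chambers, and Hspa9 and Hspd1 have shorter atrial than ventricular bars with no overlap of their points.

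Between the chambers, the chaperones lower in atrial cardiomyocytes were 4 mitochondrial ones (Hspd1, Hspa9, Dnaja3 and Dnajc19) and the Hsp70 relative Hspa12a. Those higher in atrial cells were the ER J proteins Dnajc3 and Dnajb11, the Hsp70 gene Hspa2 and the Hsp110 gene Hspa4l. Of the 64 tested genes, these 9 differed (limma, Benjamini-Hochberg adjusted p at or under 0.05 over all 12422 genes tested), where 14.7% of all tested genes did. In atrial cells 4 were higher and 5 were lower, against 8.12% and 6.56% of all genes. The share of chaperones called, 14.1%, was close to that of genes at large. The median log2 difference over the 64 genes was -0.11, and over all tested genes it was -0.01. These 9 genes, and no other chaperone, had chambers without overlap of library values, against 14.4% of all genes. Same-numbered libraries of both chambers deviated together, but in replicates 3 to 5 no longer once the library set was removed. With the replicate number as a block 27 of the 64 genes were called, against 32.3% of all genes. Of the 27, 11 were higher and 16 lower in atrial cells, against 16.3% and 16% of all genes. All 9 genes were among the 27. With library set as a term 26 were called (31.8% of all genes). Within replicates 1 and 2 alone 5 genes were called (5.23% of all genes), and within replicates 3 to 5 alone 39 were called (53.3% of all genes).

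**Figure D2:**
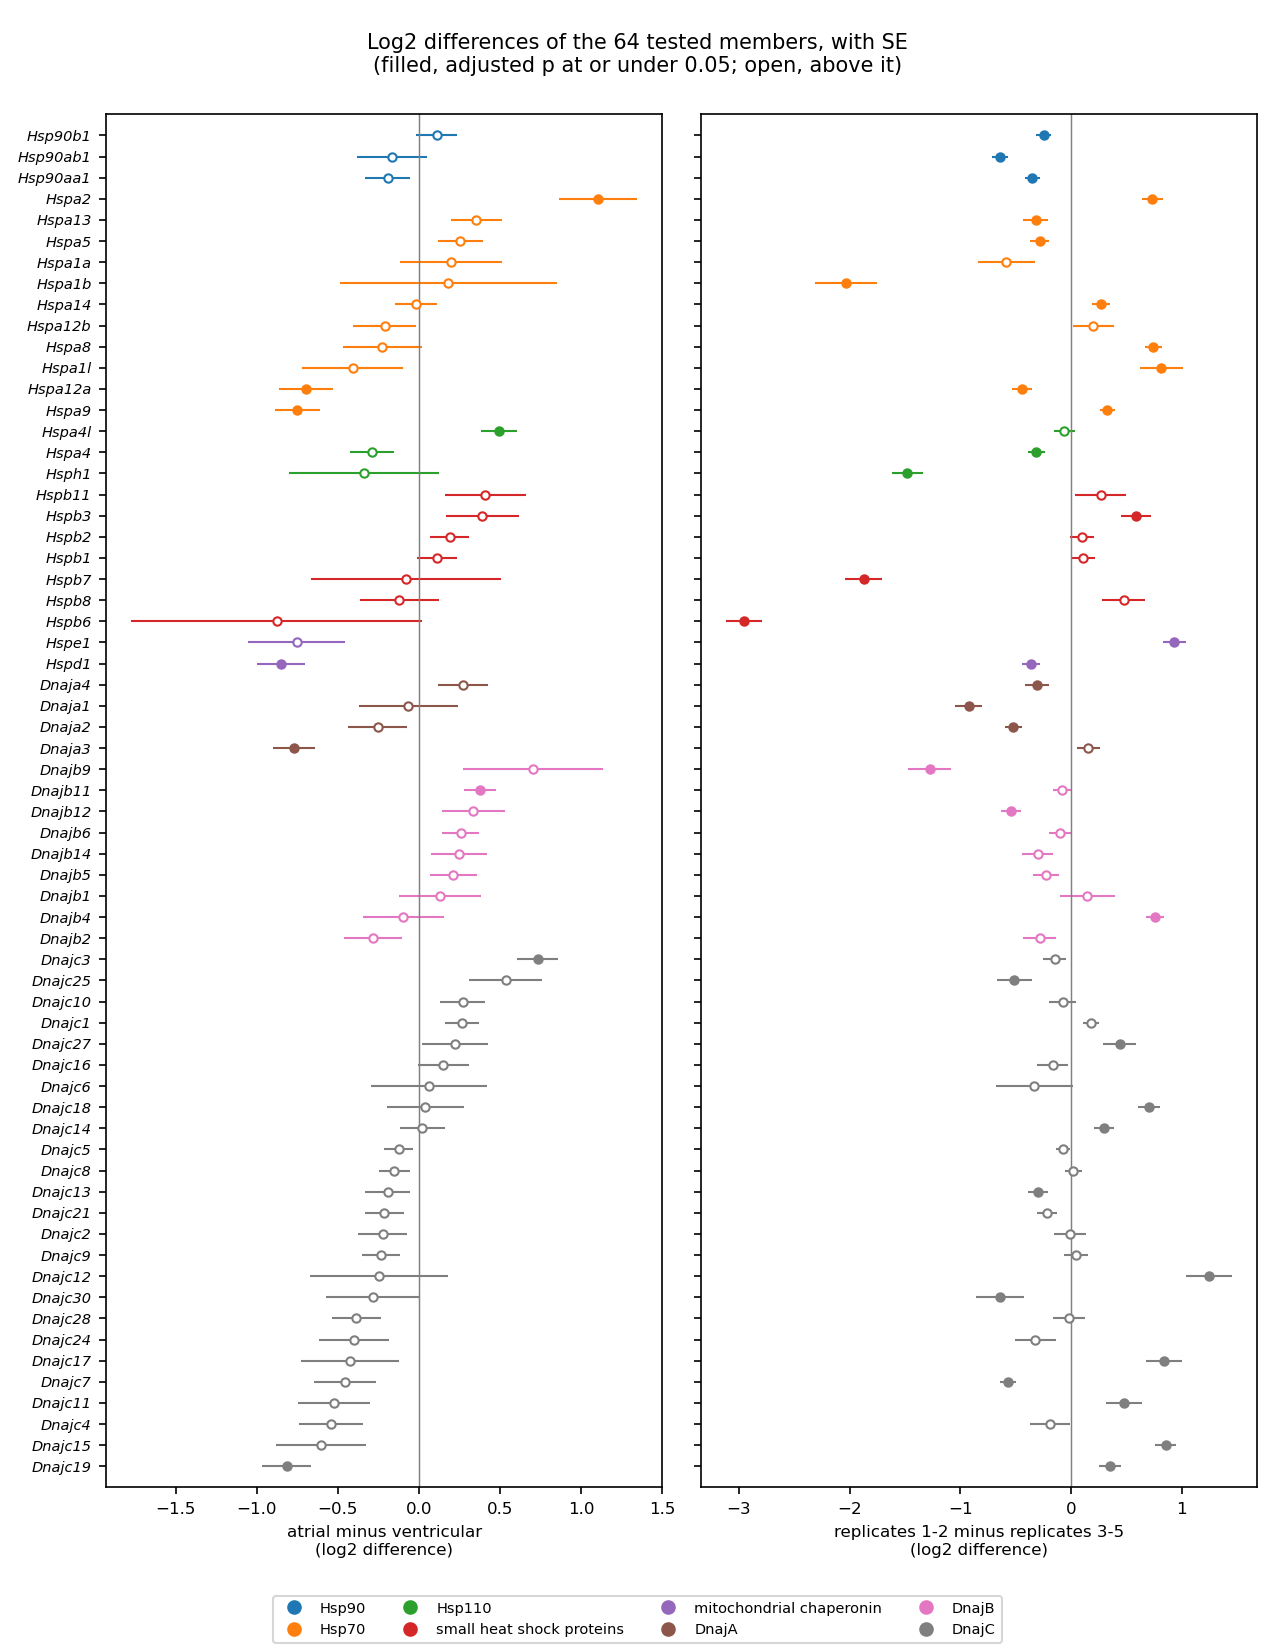
Log2 differences with SE for the 64 tested genes, grouped by family and coloured as in the legend, between atrial and ventricular libraries (left) and between replicates 1-2 and replicates 3-5 (right). Filled points have an adjusted p at or under 0.05. The left panel has 9 filled points and the right panel 37, and the small heat shock proteins Hspb6 and Hspb7 lie far to the left in the right panel.

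Hspd1 and Hspe1 encode the mitochondrial chaperonin, the Hsp60 barrel and its Hsp10 lid. They lie head to head on mouse chromosome 1 (GRCm38, Hspd1 at 55077835 to 55088243 on the minus strand and Hspe1 at 55088132 to 55091307 on the plus strand, GENCODE), and the RefSeq starts of the 2 genes are 216 bases apart. The stretch between them is shown because both genes read outward from it. The 250 bases before each start are given 5′ to 3′ from RefSeq (GRCm38.p6), and the capitals mark matches to the heat shock element, the binding motif of heat shock factors, written as GAANNTTC or TTCNNGAA.
Hspe1 promoter, chr1:55087898-55088147 (plus strand): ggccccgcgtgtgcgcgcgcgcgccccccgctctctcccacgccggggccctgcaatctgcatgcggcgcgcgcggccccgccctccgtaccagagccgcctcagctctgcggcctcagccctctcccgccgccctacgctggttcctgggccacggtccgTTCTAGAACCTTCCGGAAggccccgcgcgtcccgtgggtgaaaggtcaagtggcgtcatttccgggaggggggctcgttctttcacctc
Hspd1 promoter, chr1:55087933-55088182 (minus strand): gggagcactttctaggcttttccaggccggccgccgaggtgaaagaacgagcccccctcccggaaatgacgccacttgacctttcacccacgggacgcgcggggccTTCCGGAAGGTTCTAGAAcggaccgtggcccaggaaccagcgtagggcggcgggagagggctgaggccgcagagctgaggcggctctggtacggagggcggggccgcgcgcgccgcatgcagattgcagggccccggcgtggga
Both windows hold the same 3 overlapping matches, read on opposite strands, which join into an element of 4 units, in which GAA and TTC alternate with 2 bases between them.

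Hspd1 had 1183, 1524, 1727, 1757 and 1832 normalized reads in atrial replicates 1 to 5, against 2304, 2720.1, 3264, 2916 and 3217 in ventricular replicates 1 to 5. Every atrial value lay under every ventricular one. The atrial mean, 1605 ± 262, was 0.556 times the ventricular mean, 2884 ± 394 (SD, n = 5 each), a log2 difference of -0.85 ± 0.15 (SE, limma adjusted p = 0.0029). Hspe1 had 523, 734, 356, 371 and 373 normalized reads in atrial replicates 1 to 5, against 1176, 1246, 538, 571 and 577 in ventricular replicates 1 to 5. The chambers overlap over all libraries and separate within each library set, since replicates 1 and 2 were the higher in both chambers. The log2 difference of Hspe1 was -0.76 ± 0.30 and missed the threshold (limma adjusted p = 0.135), and it passed with the replicate block (adjusted p = 0.000565). Its estimates were -0.97 within replicates 1 and 2 (adjusted p = 0.0309) and -0.61 within replicates 3 to 5 (adjusted p = 2.02e-09, limma for both). Hspe1 overlaps the start of Hspd1, the more abundant gene, and the counting is not stated to use strand, so reads in that stretch could be shared.

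Hspa9, on chromosome 18 (34937414 to 34954357), encodes mortalin, the Hsp70 that pulls proteins into mitochondria and folds them there. It had 5677, 6312, 5036, 4987 and 5037 normalized reads in atrial replicates 1 to 5, against 10466, 10937, 8772, 7301 and 8319 in ventricular replicates 1 to 5. The ranges do not overlap. The log2 difference was -0.75 ± 0.14 (limma adjusted p = 0.00392), and with all libraries scaled to equal totals it kept its sign but not its call (-0.68, adjusted p = 0.0773).

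Dnaja3 encodes the J protein partner of mortalin in the matrix, and mice that lack it in the heart develop dilated cardiomyopathy. Dnaja3 had 343, 471, 327, 381 and 375 normalized reads in atrial replicates 1 to 5, against 599, 787, 615, 602 and 630.1 in ventricular replicates 1 to 5. The log2 difference was -0.77 ± 0.13 (limma adjusted p = 0.00211) and was -0.77 within each library set. Dnajc19, a J protein of the inner-membrane import motor whose loss in humans causes a dilated cardiomyopathy with ataxia, had 172, 186, 145, 122 and 124 normalized reads in atrial replicates 1 to 5. Ventricular replicates 1 to 5 had 301, 278, 216, 269 and 247. No atrial value reached a ventricular one for either gene. The log2 difference of Dnajc19 was -0.82 ± 0.15 (limma adjusted p = 0.00415), and under equal library totals it was -0.75 without a call (adjusted p = 0.066). Fxr1, which overlaps Dnajc19, had the higher mean, so shared reads are possible there too.

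A grouping by compartment, made with the values known and given as a description, counts 8 mitochondrial genes, the above with Dnajc11, Dnajc15 and Dnajc30. Each of the 8 estimates was negative and their median was -0.75. Of the 8, 4 were called, and 7 were called with the replicate block, against 6.56% and 16% of all genes called lower. Dnajc11, a J protein of the mitochondrial membrane, had a log2 difference of -0.52 (limma adjusted p = 0.162, and 0.00152 with the block). Dnajc15, an inner-membrane J protein, had -0.61 (limma adjusted p = 0.196, and 0.000945 with the block). Dnajc30 was the exception under the block, at -0.28 (limma adjusted p = 0.638 and 0.312), with 17.3 to 42.5 normalized reads in atrial and 24.4 to 46.5 in ventricular libraries. The 8 signs were the same under trimmed-mean (TMM) scaling and equal library totals.

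Other mitochondrial folding genes were read from a separate list of 11 tested genes. Of these 2 were called lower in atrial cells and none higher, and 5 were lower with the replicate block. The shares of all tested genes called lower were 6.56% and 16%. Trap1, the mitochondrial Hsp90, averaged 646 ± 85.7 normalized reads in atrial and 1296 ± 74.6 in ventricular libraries, a log2 difference of -1.01 ± 0.12 (limma adjusted p = 0.000204). Grpel1, the nucleotide exchange factor of mortalin, averaged 481 ± 39.7 in atrial and 775 ± 20.2 in ventricular libraries, a log2 difference of -0.69 ± 0.09 (limma adjusted p = 0.000551). The median of the list was -0.34.

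**Figure D3:**
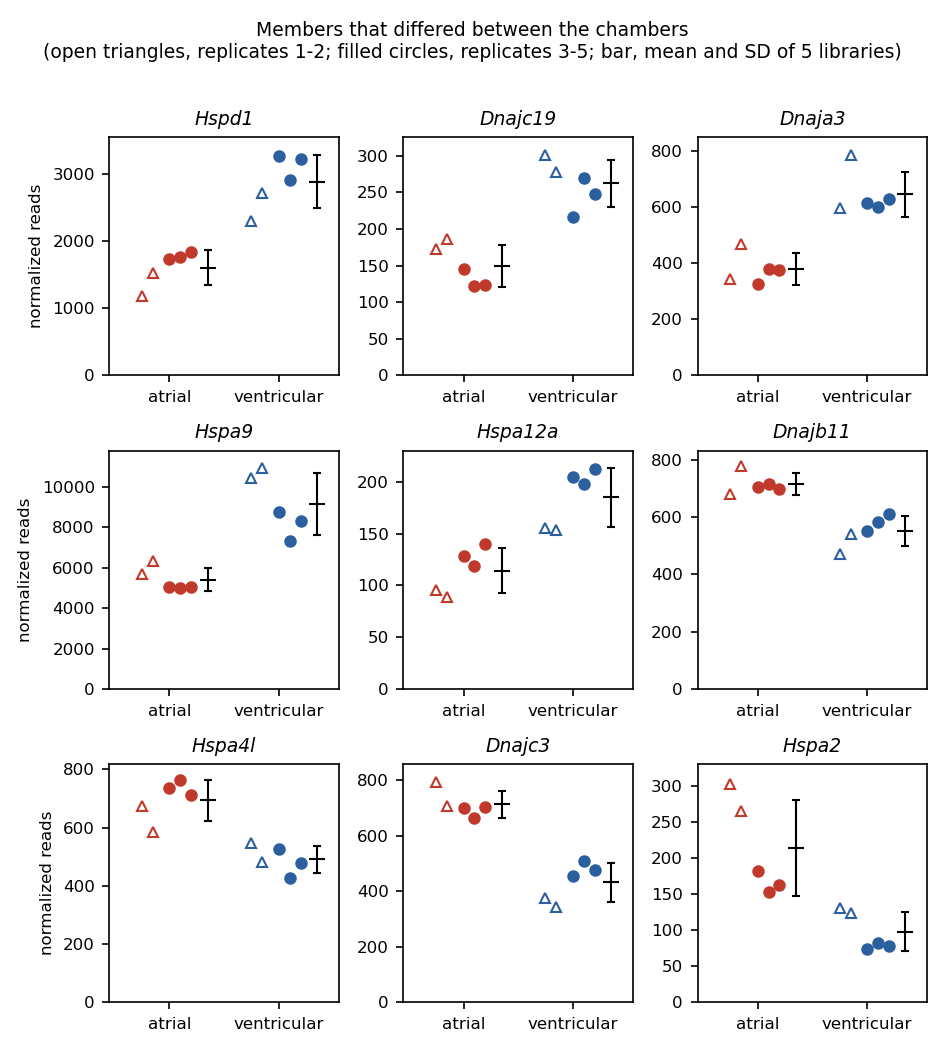
Normalized reads (vertical axes, from 0) of the 9 chaperone genes that differed between the chambers, in atrial (red, left) and ventricular (blue, right) libraries. Open triangles are replicates 1-2, filled circles replicates 3-5, and black bars the mean and SD of 5 libraries. Hspd1, Dnajc19, Dnaja3, Hspa9 and Hspa12a sit lower and Dnajb11, Hspa4l, Dnajc3 and Hspa2 higher in atrial libraries, with no overlap between chambers.

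The ER chaperones grouped here had estimates of the opposite sign. Dnajc3 (chromosome 14, 118937976 to 118981697), a J protein of the ER lumen that works with BiP and is also known as an inhibitor of the stress kinase PERK, had 796, 708, 699.8, 664 and 705 normalized reads in atrial replicates 1 to 5. It had 377, 344, 457, 511 and 476 in ventricular replicates 1 to 5. The lowest atrial value was above the highest ventricular one. The atrial mean was 1.65 times the ventricular mean, and the log2 difference was 0.73 ± 0.13 (limma adjusted p = 0.00267). Dnajb11, another BiP partner in the lumen, had 680.0, 777, 706, 717 and 696 normalized reads in atrial replicates 1 to 5, against 471, 541, 553, 584 and 609 in ventricular replicates 1 to 5. Its values did not overlap either. Its log2 difference was 0.38 ± 0.10 (limma adjusted p = 0.0269). This call is a narrow one, since it was lost when any of 5 libraries was left out (atrial replicates 2 to 5 and ventricular replicate 3, limma adjusted p = 0.0506 to 0.067), and also under equal library totals (adjusted p = 0.0601).

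The compartment grouping, made with the values known and given as a description, counts 10 ER genes. They are Dnajc3, Dnajb11, Hspa5, Hsp90b1, Hspa13, Dnajb9, Dnajb12, Dnajb14, Dnajc1 and Dnajc10. The grouping need not hold every ER chaperone, so its median and calls rest on this choice of genes. All 10 estimates were positive, with a median of 0.30. Of the 10, 2 were called and 5 were called with the replicate block, against 8.12% and 16.3% of all genes called higher. The signs were the same under TMM scaling and equal library totals, and within replicates 3 to 5 alone 8 of the 10 were positive. Those added by the block were Dnajb9 (log2 difference 0.70, limma adjusted p = 0.362, and 0.0212 with the block), Dnajb12 (0.34, adjusted p = 0.322 and 0.0232) and Dnajc1 (0.26, adjusted p = 0.133 and 0.0286). Dnajb9 encodes a BiP cofactor induced by ER stress, and Dnajb12 and Dnajc1 encode ER membrane J proteins. In a separate list of 18 tested ER folding genes none was called (limma), 17 estimates were positive, and 4 were higher in atrial cells with the replicate block, among them Atf6, Herpud1 and Sil1. The median of that list was 0.31, and 16.3% of all tested genes were higher with the block. Within replicates 1 and 2 alone its median was 0.65, with 15 of 17 tested estimates positive. Within replicates 3 to 5 alone the median was 0.065, with 13 of 18 positive, so the pooled median owes more to the shallow libraries.

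For 3 genes, all of them ER chaperones, the atrial-ventricular gap depended on the library set, which is 4.69% of the 64 genes against 5.21% of all genes (limma interaction term). Dnajc10, an ER J protein that reduces disulfide bonds, had 999 and 1095 normalized reads in atrial replicates 1 and 2, against 640.1 and 643 in ventricular replicates 1 and 2. It had 874, 849 and 851 in atrial replicates 3 to 5, against 813, 913 and 884 in ventricular replicates 3 to 5. The chambers thus stood apart in replicates 1 and 2 and overlapped in replicates 3 to 5. The chamber difference amounted to 0.70 (log2) for replicates 1 and 2, against -0.02 for replicates 3 to 5, an interaction of 0.72 ± 0.12 (limma adjusted p = 0.00847). Hspa5 had 6569 and 6028 normalized reads in atrial replicates 1 and 2, against 4418 and 4389.7 in ventricular replicates 1 and 2, and in replicates 3 to 5 it had 6641, 6530.2 and 6617 in atrial, against 5936, 6339 and 6428 in ventricular libraries. Ventricular replicates 1 and 2 were the low ones. Its interaction was 0.43 ± 0.10 (limma adjusted p = 0.036). Dnajc3 had a log2 difference of 1.06 for replicates 1 and 2, against 0.52 for replicates 3 to 5, an interaction of 0.54 (limma adjusted p = 0.0438). The call of Dnajc10 held with each library left out, whereas that of Hspa5 was lost without any of atrial replicates 3 to 5 or ventricular replicates 1, 4 and 5 (adjusted p = 0.0518 to 0.112), and that of Dnajc3 without any library other than atrial replicate 2 and ventricular replicate 1 (adjusted p = 0.0505 to 0.131).

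**Figure D4:**
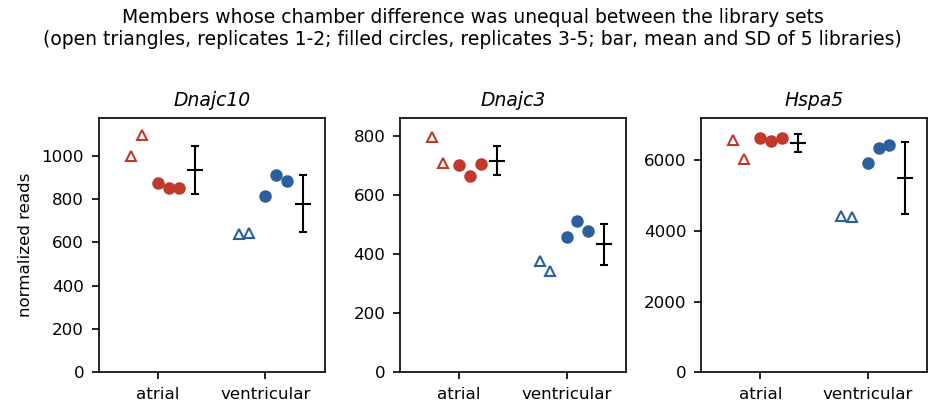
Normalized reads (vertical axes, from 0) of the 3 chaperone genes with an unequal chamber difference between library sets. Open triangles are replicates 1-2, filled circles replicates 3-5, and black bars the mean and SD of 5 libraries, with atrial (red) left and ventricular (blue) right. In Dnajc10 and Hspa5 the ventricular triangles lie lowest, and in Dnajc3 the gap between the chambers is wider for triangles than for circles.

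Hspa5, Dnajc3 and Hsp90b1 also share a promoter feature. An ER stress response element, CCAAT and CCACG with 9 bases between them, searched on both strands, was found in the 300-base RefSeq promoters of these 3 of 58 matched genes, against 0.137% of all gene symbols in the promoter table. Those of Hspa5 and Dnajc3 are shown for that match, which is in capitals, as the 250 bases before the start (RefSeq, GRCm38.p6, 5′ to 3′).
Hspa5 promoter, chr2:34771840-34772089 (plus strand): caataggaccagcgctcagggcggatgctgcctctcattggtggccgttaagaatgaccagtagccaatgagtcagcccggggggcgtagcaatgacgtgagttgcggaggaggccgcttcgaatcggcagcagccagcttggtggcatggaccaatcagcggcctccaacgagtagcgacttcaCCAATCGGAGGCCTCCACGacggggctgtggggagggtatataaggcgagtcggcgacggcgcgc
Dnajc3 promoter, chr14:118937682-118937931 (plus strand): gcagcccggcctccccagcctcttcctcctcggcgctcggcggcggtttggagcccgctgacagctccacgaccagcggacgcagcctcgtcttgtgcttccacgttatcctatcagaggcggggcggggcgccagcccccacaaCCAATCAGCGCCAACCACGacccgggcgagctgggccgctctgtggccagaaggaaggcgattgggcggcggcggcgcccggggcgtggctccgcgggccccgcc
Their chamber differences are not alike, since Dnajc3 was called higher in atrial cells and Hspa5 (0.26, limma adjusted p = 0.287) and Hsp90b1 (0.11, adjusted p = 0.688) were not called.

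Among the remaining Hsp70 relatives, Hspa2 had the largest atrial excess of the 64 genes. Hspa2 (chromosome 12, 76404176 to 76406938) is an Hsp70 best known from the testis, where male mice need it for meiosis. It had 303, 266, 182, 154 and 163 normalized reads in atrial replicates 1 to 5, against 131, 124, 74.4, 82.2 and 78.5 in ventricular replicates 1 to 5. Each atrial value exceeded every ventricular one, and replicates 1 and 2 were the higher in both chambers. The atrial mean, 214 ± 66.9, was 2.18 times the ventricular mean, 98.2 ± 27.4. This is a log2 difference of 1.10 ± 0.24 (limma adjusted p = 0.0106), 1.15 within replicates 1 and 2 and 1.08 within replicates 3 to 5. Hspa4l, an Hsp110 also named Apg1, had 673, 584, 735, 762 and 711 normalized reads in atrial replicates 1 to 5, against 547, 480.2, 525, 427 and 480.0 in ventricular replicates 1 to 5. The groups did not overlap, and the log2 difference was 0.49 ± 0.11 (limma adjusted p = 0.0118). Its relatives Hspa4 and Hsph1 had negative estimates of -0.29 and -0.34 that missed the threshold (limma adjusted p = 0.201 and 0.752) and passed it with the block (0.00634 and 0.0473).

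Hspa12a, a distant Hsp70 relative with an atypical ATPase domain, was lower in atrial cells. It had 95.2, 89.2, 128, 119 and 139.7 normalized reads in atrial replicates 1 to 5, against 156, 154, 205, 198 and 213 in ventricular replicates 1 to 5. The ranges did not overlap, and the log2 difference was -0.70 ± 0.16 (limma adjusted p = 0.0152). Hspa12b, its close relative, had -0.21 (limma adjusted p = 0.592).

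None of the abundant cytosolic chaperones was called between the chambers in the test without a block. Hsp90ab1 averaged 10466 ± 2812 normalized reads in atrial and 11558 ± 2261 in ventricular libraries (limma adjusted p = 0.737), and Hsp90aa1 averaged 2118 ± 313 in atrial and 2419 ± 336 in ventricular libraries (adjusted p = 0.453, and 0.0471 with the block). Hspa8 averaged 5303 ± 1669 in atrial and 6151 ± 1786 in ventricular libraries (limma adjusted p = 0.668, and 0.0296 with the block). The stress-inducible pair Hspa1a and Hspa1b had log2 differences of 0.20 and 0.18 with SE of 0.32 and 0.67 (limma adjusted p = 0.793 and 0.925). The J proteins of the cytosol gave no call either. Dnaja1 had -0.07, Dnajb1, the inducible Hsp40, had 0.13, and Dnajb6, a suppressor of aggregation mutated in a human limb-girdle muscular dystrophy, had 0.26 (limma adjusted p = 0.942, 0.841 and 0.177, and for Dnajb6 0.0432 with the block). The sign of Dnaja1 turned under equal library totals and in the count-based fits. Other cytosolic J proteins were called with the block only. Dnaja2 (-0.25) and Dnajc7 (-0.46) were lower in atrial cells and Dnaja4 (0.27) was higher (limma with the block, adjusted p = 0.0395, 0.00228 and 0.0356). Of 8 small heat shock proteins 7 were tested and none was called. Hspb1, Hspb7 and Hspb8 had log2 differences of 0.11, -0.08 and -0.12 (limma adjusted p = 0.673, 0.961 and 0.848).

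Hspb6, known as Hsp20, is a small heat shock protein that the cyclic nucleotide-dependent kinases phosphorylate in heart and smooth muscle. Its values differed more between library sets than between chambers. Replicates 1 and 2 had 108 and 104 normalized reads in atrial, against 111 and 183 in ventricular libraries, and replicates 3 to 5 had 597, 647 and 666 in atrial, against 1514, 1347 and 1458 in ventricular libraries. Over all libraries the log2 difference was -0.88 ± 0.90 (limma adjusted p = 0.645), with the block the adjusted p was 0.00791, and within replicates 3 to 5 alone the difference was -1.18 (adjusted p = 2.73e-15). The interaction was 0.75 and missed the threshold (limma adjusted p = 0.111).

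Markers of other cell types also moved with chamber. For comparison, 8.12% of all tested genes were called higher and 6.56% lower in atrial libraries, and 16.3% and 16% with the block. The 7 of 8 listed epicardial markers in the tables were all called higher in atrial libraries, with a summed level of 2707 to 6446 normalized reads in atrial and 343 to 1837 in ventricular libraries. Smooth muscle and pericyte markers summed to 1757 to 6663 in atrial and 9243 to 15694 in ventricular libraries, with 3 of 8 called lower in atrial libraries. Fibroblast markers, with 2 of 8 called lower in atrial, summed to 14438 to 33391 in atrial and 6093 to 52021 in ventricular libraries. Endothelial markers, with 2 of 7 tested called higher in atrial, summed to 887 to 2803 in atrial and 373 to 1695 in ventricular libraries. Of 3 tested macrophage and blood cell markers and of 3 tested neuronal and glial markers, 1 each was called higher in atrial. The globin genes Hba-a1 and Hbb-bs were at 0 in all libraries. No other globin symbol was listed, so these zeros do not show that blood RNA was absent. The part of these cells in the chaperone differences was not tested. Immediate early genes, which respond within minutes to stress and to cell isolation, had 5 of 24 called higher in atrial cells and none lower, and 15 higher and 1 lower with the block.

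The second comparison set replicates 1 and 2 against replicates 3 to 5, with chamber as a term. It is a division of libraries and no group of the study. Of the 64 genes, 37 differed (limma, adjusted p at or under 0.05 over all genes), where 52.7% of all tested genes did, with 16 higher and 21 lower in replicates 1 and 2, against 24.1% and 28.6%. The share of chaperones called was 57.8%. The split depends on scaling. With TMM factors 11 genes were higher and 24 lower, and with equal library totals 26 were higher and 8 lower. Those totals included the Rn45s reads, a larger share of replicates 3 to 5 than of replicates 1 and 2. The share of all genes called under these scalings was not counted. The median log2 difference of all genes was -0.04 under the deposited scaling, -0.14 under TMM and 0.27 under equal totals. Under equal totals 4 called genes turned sign (Hsp90b1, Hspa5, Dnajc13 and Dnaja4), and no called gene did so under TMM. The values of the 2 sets did not overlap for 18 of the 64 genes, against 30.3% of all genes.

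**Figure D5:**
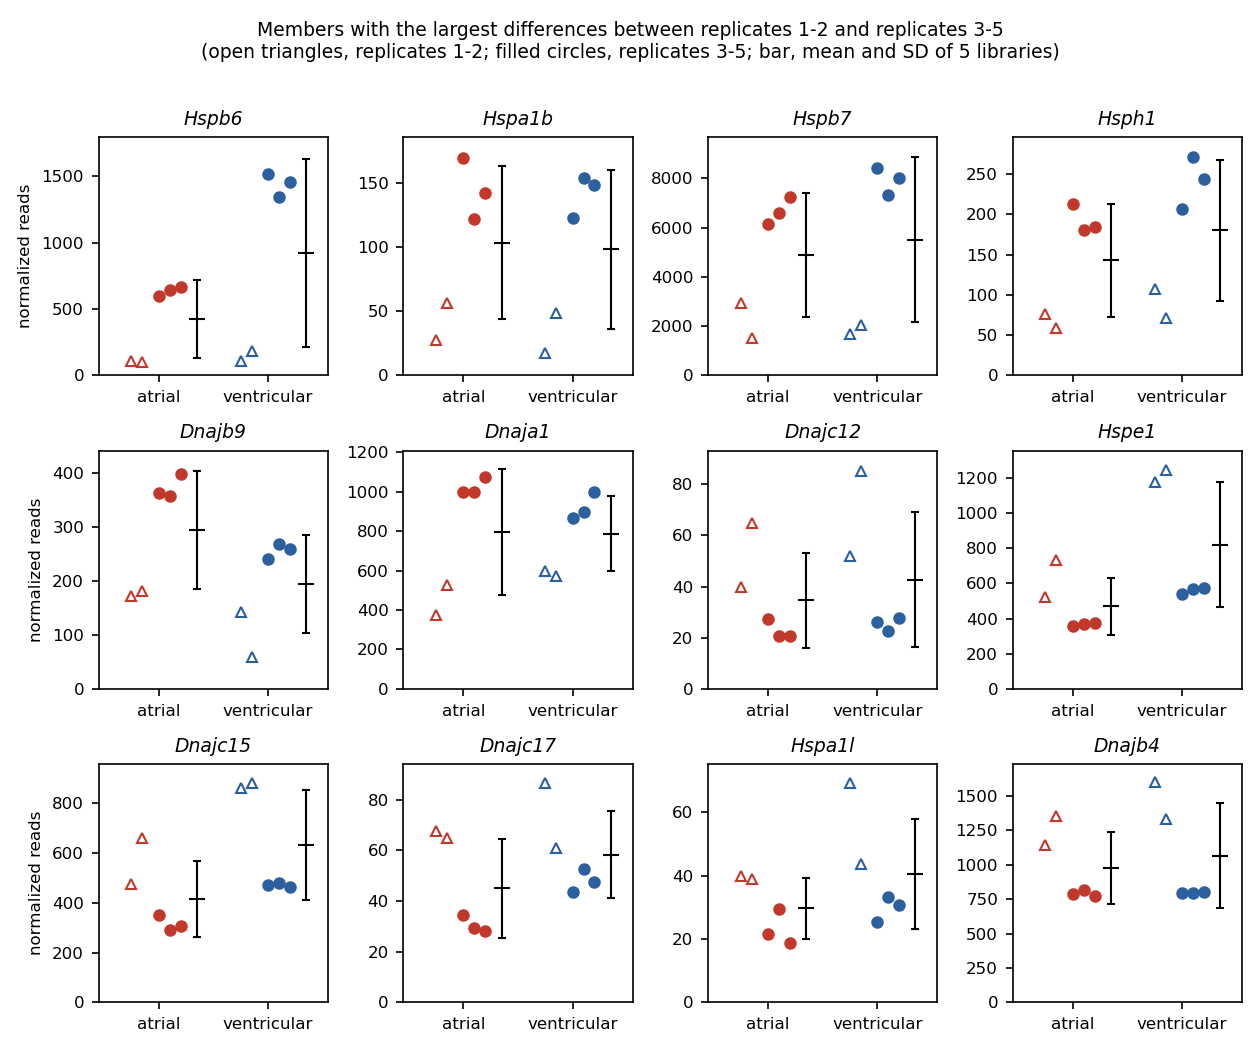
Normalized reads (vertical axes, from 0) of the 12 chaperone genes with the largest differences between replicates 1-2 (open triangles) and replicates 3-5 (filled circles), 6 in each direction, in atrial (red) and ventricular (blue) libraries, with the mean and SD of 5 libraries as black bars. Triangles lie under circles of the same chamber in the first 6 panels, Hspb6 to Dnaja1, and above them in the last 6, Dnajc12 to Dnajb4.

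Among the small heat shock proteins Hspb6 and Hspb7 were lower in replicates 1 and 2. The log2 difference of Hspb6 was -2.95 ± 0.16 (limma adjusted p = 1.71e-07), the most negative of the 64 genes. Its mean of 126 ± 37.9 normalized reads in replicates 1 and 2 (n = 4) was 0.122 times that of 1038 ± 444 in replicates 3 to 5 (n = 6). Hspb7 had 2927 and 1513 normalized reads in atrial and 1695 and 2043 in ventricular replicates 1 and 2. Replicates 3 to 5 had 6159, 6586 and 7242 in atrial and 8434, 7338 and 8032 in ventricular libraries. The sets did not overlap in either chamber. On the log2 scale Hspb7 differed by -1.87 ± 0.17 (limma adjusted p = 5.29e-06). The other tested small heat shock proteins had positive estimates. Hspb8 had 0.47 (limma adjusted p = 0.0575) and was called higher in replicates 1 and 2 under equal totals (0.79, adjusted p = 0.00574), in the count-based fits (0.56 with edgeR and 0.55 with DESeq2, adjusted p = 0.0151 and 0.00887), without ventricular replicate 1 (0.72, adjusted p = 0.000744) and without both replicate 1 libraries (0.88, adjusted p = 1.15e-05). Hspb1 had 0.11 (limma adjusted p = 0.394, and 0.43 with adjusted p = 0.00817 under equal totals), Hspb2 had 0.10, and the muscle protein Hspb3 was higher in replicates 1 and 2, at 0.59 (adjusted p = 0.00339). As a sum the family ran from 2546 to 3865 normalized reads in replicates 1 and 2 and from 7521 to 10707 in replicates 3 to 5, most of it Hspb7. Cryab, the alpha-B-crystallin that belongs to the same protein family under another name, was lower in replicates 1 and 2, at -0.61 (limma adjusted p = 9.73e-06).

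Of the stress-inducible genes of the cytosol, Hspa1b, Hsph1 and Hsp90aa1 were called lower in replicates 1 and 2, and Hspa1a and Dnajb1 were not called. Hspa1b, one of the classical inducible Hsp70 genes, had 27.6 and 56.1 normalized reads in atrial and 17.3 and 48.7 in ventricular replicates 1 and 2. It had 169, 121 and 142 in atrial and 123, 154 and 148 in ventricular replicates 3 to 5. No value in replicates 1 and 2 reached those of replicates 3 to 5, and the difference was -2.03 on the log2 scale, with SE 0.28 (limma adjusted p = 0.000111). Hspa1a, its near-identical neighbour on chromosome 17, had 30.3 and 74.8 in atrial and 27.7 and 63.4 in ventricular replicates 1 and 2, and 60.5 to 74.7 over replicates 3 to 5 of both chambers. Only the replicate 1 libraries stood apart, and the log2 difference was -0.58 ± 0.26 (limma adjusted p = 0.0766). Hspa1a was called at -0.83 without atrial replicate 2 and at -0.81 without ventricular replicate 2 (adjusted p = 0.0147 and 0.0199). Reads cannot be assigned with certainty between such close copies, and ventricular replicate 1 had 8 reads of Hspa1a and 5 of Hspa1b.

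The promoter of Hspa1b is shown as that of the inducible gene with the widest gap between sets, with its heat shock element match in capitals (RefSeq, GRCm38.p6, 5′ to 3′).
Hspa1b promoter, chr17:34959239-34959488 (minus strand): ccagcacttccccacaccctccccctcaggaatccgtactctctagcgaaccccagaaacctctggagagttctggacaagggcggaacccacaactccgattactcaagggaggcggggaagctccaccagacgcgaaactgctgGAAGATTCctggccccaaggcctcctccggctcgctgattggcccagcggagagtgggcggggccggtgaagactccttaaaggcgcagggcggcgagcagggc
Hspa1a carries the same 8 bases at the same distance, 104 bases before its start.

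Hsph1, the inducible Hsp110, had 75.9 and 59.0 normalized reads in atrial and 107 and 70.7 in ventricular replicates 1 and 2, and 181 to 271 over replicates 3 to 5. Its log2 difference was -1.48 ± 0.14 (limma adjusted p = 5.15e-06). Dnaja1, a farnesylated J protein of the cytosol, had 377 and 528 in atrial and 599 and 573 in ventricular replicates 1 and 2, and 868 to 1074 over replicates 3 to 5. In both genes the sets were separate. The log2 difference of Dnaja1 was -0.92 ± 0.12 (limma adjusted p = 7.56e-05). Hsp90ab1 was lower, at -0.64 ± 0.07 (adjusted p = 1.55e-05) and Hsp90aa1 at -0.35 ± 0.07 (adjusted p = 0.00122), and under equal totals Hsp90aa1 lost its call (-0.03). Dnajb9, the ER stress-induced J protein, had 172 and 181 in atrial and 142 and 58.5 in ventricular replicates 1 and 2, and 242 to 399.7 over replicates 3 to 5, a log2 difference of -1.28 ± 0.20 (limma adjusted p = 0.00028). Dnajb1, which heat shock factors also induce, had 0.15 ± 0.25 and was not called (limma adjusted p = 0.637). Without both replicate 1 libraries it was called higher in replicate 2, at 0.69 (adjusted p = 0.000913), and its highest values were those of replicate 2 in both chambers.

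Hspa8, the constitutive partner of the inducible Hsp70 genes, went the other way. It had 6917 and 7301 normalized reads in atrial and 7165 and 8831 in ventricular replicates 1 and 2, and 4459, 3942 and 3896 in atrial and 4855 to 4983 in ventricular replicates 3 to 5. The lowest value in replicates 1 and 2 was above all of replicates 3 to 5. The log2 difference was 0.74 ± 0.07 (limma adjusted p = 7.87e-06). The 2 chaperonin genes that share a promoter parted here. Hspe1 was higher in replicates 1 and 2 by 0.93 ± 0.10 (limma adjusted p = 2.03e-05), while Hspd1 was lower, at -0.36 ± 0.08 (adjusted p = 0.00368), a call lost under equal totals (-0.05). Between the chambers both had negative estimates.

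The largest positive difference was that of Dnajc12, a J protein that assists the aromatic amino acid hydroxylases. It had 40.0 and 64.8 normalized reads in atrial and 51.9 and 85.3 in ventricular replicates 1 and 2, and 20.6 to 27.8 over replicates 3 to 5. The log2 difference was 1.24 ± 0.21 (limma adjusted p = 0.00039). After Dnajc12 and Hspe1, Dnajc15 followed at 0.85 ± 0.09, with Dnajc17, a nuclear J protein linked to splicing, at 0.84 ± 0.16, Hspa1l, an Hsp70 beside Hspa1a on chromosome 17, at 0.82 ± 0.19, and Dnajb4, a cytosolic relative of Dnajb1, at 0.76 ± 0.08 (limma adjusted p = 2.04e-05, 0.0012, 0.00431 and 1.43e-05). The mean of Dnajb4 was 1358 ± 188 normalized reads in replicates 1 and 2 and 795 ± 15.5 in replicates 3 to 5. Of these 4 genes Dnajc15 alone had overlapping sets over all libraries. Zfyve19, which overlaps Dnajc17, had the higher mean.

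By compartment, 5 of the 8 mitochondrial genes were higher and 2 (Hspd1 and Dnajc30) were lower in replicates 1 and 2. Of the 10 ER genes 5 were lower and none higher, though under equal totals 7 of the 10 ER estimates were positive. Among all tested genes 24.1% were higher and 28.6% lower. Across the 64 genes the set difference had a Spearman coefficient of 0.000916 with GC content and -0.15 with length. Both were taken from the longest protein-coding transcript, and are given as a description of genes that share libraries.

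Genes whose promoters hold a heat shock element differed in direction. The 2-unit motif was found on either strand in the promoters of 16 of 58 matched genes, against 17% of all symbols, and the 3-unit motif, which contains the 2-unit one, in Hspd1, Hspe1, Hsph1 and Dnajb6, that is 4 of 58, against 0.662% of all symbols. Their log2 differences between sets were -0.36, 0.93, -1.48 and -0.10, and the last was not called (limma adjusted p = 0.429). A match describes these letters only.

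Partners of the chaperones were counted from lists. For comparison, 8.12% of all tested genes were higher and 6.56% lower in atrial cells, and 16.3% and 16% with the block. Between the sets 24.1% were higher and 28.6% lower in replicates 1 and 2. Of the heat shock factor list 3 of 6 genes were tested, none was called between the chambers, and Hsf1, the main stress-activated factor, was lower in replicates 1 and 2, at -1.04 ± 0.19 (limma adjusted p = 0.000779). Of 27 cochaperones of Hsp70 and Hsp90 none was higher and 2 were lower in atrial cells, Stip1, which links Hsp70 to Hsp90, at -0.37 (limma adjusted p = 0.0262) and the immunophilin Fkbp4 at -0.56 (adjusted p = 0.00802), and 5 were lower with the block. Between the sets 9 were higher and 9 were lower in replicates 1 and 2. Bag3, which joins Hsp70 to Hspb8 in clearing damaged sarcomere protein, was lower at -1.44 ± 0.14 (limma adjusted p = 1.02e-05), Cdc37, the kinase adaptor of Hsp90, at -0.92 (adjusted p = 3.1e-06) and Chordc1 at -1.11 (adjusted p = 3.33e-05). For TRiC, the cytosolic chaperonin that folds actin and tubulin, all 8 subunits had negative chamber estimates with a median of -0.24, none was called, and 5 were lower with the block. Between the sets 7 of the 8 were higher in replicates 1 and 2. Of 6 prefoldin subunits, which hand clients to TRiC, none was called between the chambers and 3 were lower in atrial cells with the block, and Pfdn2 was lower in replicates 1 and 2, at -2.52 ± 0.13 (limma adjusted p = 5.89e-08). Of the ER folding list 7 were higher and 4 lower in replicates 1 and 2, and of the mitochondrial folding list 7 were higher and 2 lower.

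Cell type markers and immediate early genes moved with the sets too, where 24.1% of all tested genes were higher and 28.6% lower in replicates 1 and 2. Cardiomyocyte markers summed to 783299 to 1210640 normalized reads in replicates 1 and 2 and 495962 to 590878 in replicates 3 to 5, with 8 of 13 called higher and 2 lower in replicates 1 and 2. Fibroblast markers summed to 6093 to 22456 in replicates 1 and 2 and 31360 to 52021 in replicates 3 to 5, apart from one another, with 5 of 8 lower. Of 7 tested endothelial markers 5 were higher in replicates 1 and 2, and their sums were 373 to 2803 in replicates 1 and 2 and 547 to 963 in replicates 3 to 5. Epicardial markers had 4 of 7 lower, with sums of 343 to 6446 in replicates 1 and 2 and 1253 to 4968 in replicates 3 to 5. Smooth muscle markers had 3 higher and 2 lower of 8, with sums of 5123 to 15694 in replicates 1 and 2 and 1757 to 10310 in replicates 3 to 5. Of 24 tested immediate early genes 1 was higher and 12 were lower in replicates 1 and 2, Egr1 at -3.21 ± 0.29 (limma adjusted p = 9.67e-06). The parts of cell makeup, read depth, ribosomal RNA content and stress during isolation in the chaperone differences between sets were not tested, and depth and Rn45s cannot be told apart from the set itself.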

How the data were processed

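RNA of 5 atrial and 5 ventricular cardiomyocyte libraries was sequenced. Trimmomatic, HISAT2, featureCounts and the GRCm38 (mm10) build are named in the submitters' processing notes. Versions, annotation and strand setting were not given in the sources used here. Each deposited value is a signal, the reads of a gene over a library's DESeq2 size factor, per the file headers. Division by each library's step gave whole reads within 0.01 for 100% of values. Every library was counted as its own sample.

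The 12422 genes that averaged 10 or more normalized reads were tested on log2(normalized reads + 1) by limma 3.58.1 (R 4.3.3, trend and robust variance, two-sided). Adjustment was Benjamini-Hochberg over all of them, at 0.05. That scale understates the change of low genes. Folds are ratios of group means. The fits were run on simulated data, where 99 of 100 changes of log2 size 1 were recovered for chamber, 100 for library set and 70 for the interaction. False calls in these runs were 4, 20 and 24. The simulation gave all genes the same dispersion and put no set difference into the chamber run. It therefore cannot show how the fits behave on these libraries. Models held chamber alone, chamber with library set (replicates 1-2 or 3-5), and their product. Differences run atrial minus ventricular and replicates 1-2 minus replicates 3-5. The alternatives were pseudocounts, filters, TMM scaling, equal totals, edgeR 4.0.16 and DESeq2 1.42.0 on the recovered reads, libraries left out, and the replicate block. The equal totals included Rn45s reads.

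Deviations from group means correlated between same-numbered libraries at 0.582, 0.637, 0.623, 0.556 and 0.631 for replicates 1 to 5. All exceed 0.1, so the replicate number was used as a block, from the data and not the labels. With the library set removed the values were 0.405 and 0.405 for replicates 1 and 2, and -0.0394, 0.00205 and 0.0678 for replicates 3 to 5. The 0.405 is a single value, since the deviations of 2 libraries mirror each other. Within replicates 3 to 5 same-numbered libraries thus showed no pairing, and there the block carries little beyond the library set.

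The genes and all gene lists were chosen with earlier results of these data known. Named genes were 16 anchors by role, all genes called between chambers (up to 12 in each direction), the 6 largest in each direction between library sets and those with a called interaction, 31 in all. Listed partner genes are named where called, up to 3 a list. Positions are GENCODE M21, found for all 72 genes. Of these, 24 overlap another gene, and in 8 the other gene has the higher mean. RefSeq promoters (GRCm38.p6, 250 bases before to 50 after a start) matched 58 of 72 genes.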

Additional observations from a re-analysis of the deposited data

Results flagged for a closer look

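Of 62 groups of 5 libraries checked for the 31 named genes, 7 had a library far from the other 4, where chance gives about 1 in 20. Ventricular replicate 2 was far above the others for Dnaja3 (787 normalized reads, the others 599 to 630.1), Dnajb1 (297, the others 142 to 159) and Hspb8 (409, the others 190.3 to 242). Atrial replicate 2 was far below the others for Dnajb6 (206, the others 270.1 to 289.6) and Hspa5 (6028, the others 6530.2 to 6641). Replicate 1 was far below the others for Hspa1a in both chambers, at 30.3 in atrial (the others 71.6 to 74.8) and 27.7 in ventricular libraries (the others 60.5 to 65.1). All 7 libraries belong to replicates 1 and 2, the shallower set, and the check cannot tell a stray library from a difference between the sets.

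The chamber difference was unequal between library sets for Dnajc10 (0.72 on the log2 scale, limma interaction adjusted p = 0.00847), Dnajc3 (0.54, adjusted p = 0.0438) and Hspa5 (0.43, adjusted p = 0.036), in each case with the larger atrial excess in replicates 1 and 2.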

How the results depend on the processing

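The count of 9 chaperones called between the chambers became 27 with the replicate block, 26 with library set as a term, 5 within replicates 1 and 2 and 39 within replicates 3 to 5, and over all genes the 1824 became 4017, 3955, 672 and 6453. All 9 stayed among those called with the block, with the set term and within replicates 3 to 5, and 4 of them within replicates 1 and 2. With single libraries left out the counts were 8 to 11 chaperones and 1369 to 1948 genes. Between library sets the 37 became 23 without the chamber term, and 33 to 39 with single libraries left out. The replicate block changed no call there (37). The 3 unequal chamber differences became 1 under equal totals, 5 with DESeq2, 12 without both replicate 1 libraries, 5 with the replicate block and 1 to 11 with single libraries left out, with 11 reached without atrial replicate 2 and 7 without ventricular replicate 2. The other settings listed kept each count within 1.5 times. Outside the chamber comparison the share of all genes called was not counted under these settings. Those chaperone counts therefore cannot be set against genes at large. The cause of these changes was not tested.

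Some estimates near 0 changed sign. Between the chambers Dnaja1 was 0.0037 under equal totals, 0.012 with edgeR and with DESeq2, 0.085 without both replicate 1 libraries and 0.15 within replicates 3 to 5 (limma adjusted p = 0.0369). Within replicates 1 and 2 Dnajb1 was -0.21, Hspb7 0.18 and Hspb8 0.074, and within replicates 3 to 5 Dnajc10 was -0.019. With single libraries left out the ranges were -0.20 to 0.17 for Dnaja1, -0.43 to 0.29 for Hspb7, -0.28 to 0.063 for Hspb8, -0.033 to 0.45 for Hspa1a and -0.33 to 0.58 for Hspa1b. Between the library sets Dnajb6 was 0.22 and Hspa5 0.030 under equal totals, Dnajb1 was -0.14 in atrial libraries alone, and Hspa1a was 0.027 without both replicate 1 libraries. With single libraries left out Dnajb6 ran from -0.18 to 0.011 and Dnajb1 from -0.12 to 0.43. Hspa5 lost its call between sets without ventricular replicate 2 (-0.23, limma adjusted p = 0.0549). Without both replicate 1 libraries Dnajb6 was called between sets (-0.25, limma adjusted p = 0.0223), and within replicates 3 to 5 Dnajb1 (0.36, adjusted p = 0.00133) and Hspb8 (-0.25, adjusted p = 0.0128) were called between the chambers.

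Replicates 1 and 2 are the shallow libraries, so low genes such as Hspa1a and Hspa1b rest on few reads there.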
